A study of Mus musculus with 12 samples.

Results

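The RNAs described here are 8 noncoding transcripts made in the nucleus of mouse cells: Rmrp, Rpph1, Rn7sk, Terc, Malat1, Neat1, Gas5 and Snhg1. They were chosen by name as RNAs linked to import by the mitochondrial exoribonuclease PNPase, together with other noncoding RNAs. Of the 8 names, 7 had a row among the 24453 genes of the count table, and all 7 passed the filter that left 14026 genes for testing. Rn7sk was not analysed here. The study asked how the loss of PNPase, encoded by Pnpt1, changes gene expression in mouse embryonic fibroblasts (MEFs), and it set PNPase knockout (PKO) lines beside a line treated to remove mitochondrial DNA. The amount of mitochondrial DNA is not part of these data, so that an effect of PNPase loss and of any change in that amount cannot be told apart in PKO. Ribosomal RNA was depleted from total RNA of the cells, and strand-specific libraries were sequenced from 12 samples of 4 lines, 3 cultures per line. No mitochondrial fraction was measured, so that the levels given here do not show how much of an RNA was imported. All lines were of strain C57BL6/J with the genotype Pnpt1 neo-flox/neo-flox, were immortalized with the SV40 large T antigen and were grown with 50 µg/mL uridine. TM6 was the untreated parent line, not exposed to Cre. The rho0 line was TM6 kept in 750 ng/mL ditercalinium for 3 weeks, which removes mitochondrial DNA, and then grown from a single colony. PKO-1 and PKO-6 were single colonies of TM6 isolated after an adenovirus had delivered Cre recombinase, which deletes the floxed part of Pnpt1. Each derived line was therefore 1 clone. An effect of the treatment and a difference between clones cannot be told apart in a single line, and pooling the PKO clones does not remove this. Cultures were the replicates in all tests, so that the p-values do not measure a spread between independent clones.

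PNPase degrades RNA from its 3′ end and resides largely in the mitochondrial intermembrane space, where it has also been linked to the entry of nuclear RNAs into mitochondria. The RNA of RNase P (Rpph1) and the RNA of RNase MRP (Rmrp) are the catalytic cores of related ribonucleoproteins that process transfer RNA and ribosomal RNA precursors, and both have been described as import substrates, as has the telomerase RNA Terc. Malat1 and Neat1 are long RNAs kept in the nucleus, the latter as the scaffold of paraspeckles, whereas Gas5 and Snhg1 are spliced host transcripts whose introns give small nucleolar RNAs (snoRNAs) and whose exons are degraded through nonsense-mediated decay.

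Total counts ranged from 47164832 to 67991336 per sample, and the 7 RNAs together took between 1.04% and 2.50% of them. Pnpt1 had 2832, 3243 and 3320 normalized counts in the TM6 samples, 5051, 5251 and 5509.5 in rho0, 1254, 1191 and 1276 in PKO-1, and 1897, 1720.4 and 2214 in PKO-6. All 6 PKO samples were below the 3 TM6 samples and all 3 rho0 samples were above them, and the remaining counts in PKO are of the whole gene, in which only a part is deleted. Pnpt1 differed by a log2 fold change of -0.97 ± 0.18 (SE) in PKO against TM6 (edgeR, adjusted p = 0.000836), and by -0.65 ± 0.09 between PKO-1 and PKO-6 (edgeR, adjusted p = 1.92e-05). In rho0 against TM6 it was 0.75 ± 0.21 (edgeR, adjusted p = 0.0116), which missed the threshold. It passed with the 4 lines fitted separately (0.75, edgeR, adjusted p = 2.09e-06) and without PKO-1 replicate 1 or 2 or PKO-6 replicate 3 (edgeR, adjusted p from 0.00373 to 0.00985). Fitting the lines separately keeps the difference between the PKO clones out of the spread, and the SE there was 0.08.

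Of the 12 fibroblast and mesenchymal markers looked at, Vim, Col1a1, Col1a2 and Fn1 had at least 64739, 30948, 39760 and 109164 normalized counts in every sample, but several markers differed strongly between the lines. Col1a1 averaged 182206 normalized counts in the TM6 samples, 61619 in rho0, 98095 in PKO-1 and 38368.5 in PKO-6, and it was lower by -1.56 in rho0 (edgeR, adjusted p = 0.00976) and by -1.42 in PKO (edgeR, adjusted p = 0.0056) against TM6. Fn1 was higher in both, by 1.07 (edgeR, adjusted p = 2.21e-05) and 1.04 (edgeR, adjusted p = 1.00e-05). Col3a1 averaged 4765, 476, 7011 and 329 normalized counts in the same order, Pdgfra 341.8, 81.6, 3225 and 414.6, and Dcn 25.3, 8.2, 183.3 and 146.9; Dcn was called as lower in rho0 at -1.62 (edgeR, adjusted p = 0.00106) and as higher in PKO at 2.70 (edgeR, adjusted p = 9.11e-06). Thy1 did not exceed 5 normalized counts in any sample, and Lum was at 0 in all rho0 samples. Markers of other cell types were mixed as well. The blood marker Ptprc stayed at or below 3.2 normalized counts while Cd68 was at 72.6 to 199.7, and of the muscle genes Myog was at 0 in all samples while Des, at 5.2 to 54.8, was higher in PKO than in TM6 by 2.24 (edgeR, adjusted p = 0.000175). Of the epithelial markers Epcam and Krt18 reached 104.7 in PKO-6 and 832.9 in PKO-1, while Cdh1 and Krt8 did not exceed 10.4 and 18.2. Of the neuronal genes Map2 was at 1984 to 4802 and Tubb3 at 155.1 to 531.5, while Rbfox3 did not exceed 1.1. The part of these differences in the results on the 7 RNAs was not tested.

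A gene was called when its adjusted p in the edgeR quasi-likelihood test was below 0.01 and its absolute log2 fold change above 0.5. In rho0 against TM6, 2 of the 7 RNAs were called, Gas5 and Snhg1, both higher, where 29.3% of all tested genes were called, 13.7% as higher and 15.6% as lower. In PKO against TM6, with the clones pooled, 2 of 7 were called, Rpph1 and Snhg1, both higher, against 25.7% of all genes, 13.5% as higher and 12.2% as lower. In PKO against rho0 1 of 7 was called, Gas5, which was lower, against 10.7% of all genes, 6.33% as higher and 4.36% as lower. Between the clones, 2 of 7 were called in PKO-1 against PKO-6, Rpph1 and Snhg1, both lower in PKO-1, against 29.1% of all genes, 11.5% as higher and 17.6% as lower. These shares of the 7 RNAs are close to those of all genes. The comparisons of rho0 and of PKO with TM6 share the TM6 samples. The median log2 fold change of the 7 RNAs was 0.375 in rho0 against TM6 and 0.45 in PKO against TM6, beside 0.018 and 0.029 over all tested genes, and it was -0.17 in PKO against rho0 and -0.51 between the clones, beside 0.022 and -0.012. With the effective length offset, chosen after seeing the data, the median in rho0 against TM6 was 0.74, the value of Neat1, and 3 of the 7 RNAs were called, beside 29.4% of all genes. When the 4 lines were fitted separately, 3 of the 7 RNAs were called in rho0 against TM6, where 42.1% of all genes were, 2 in PKO-1 against TM6, where 34.3% were, and 4 in PKO-6 against TM6, where 41.3% were. That fit does not count the difference between the PKO clones as spread, and a call gained in it can come from that alone. In these bulk samples fewer cells that carry an RNA and less of it per cell cannot be told apart.

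**Figure D1:**
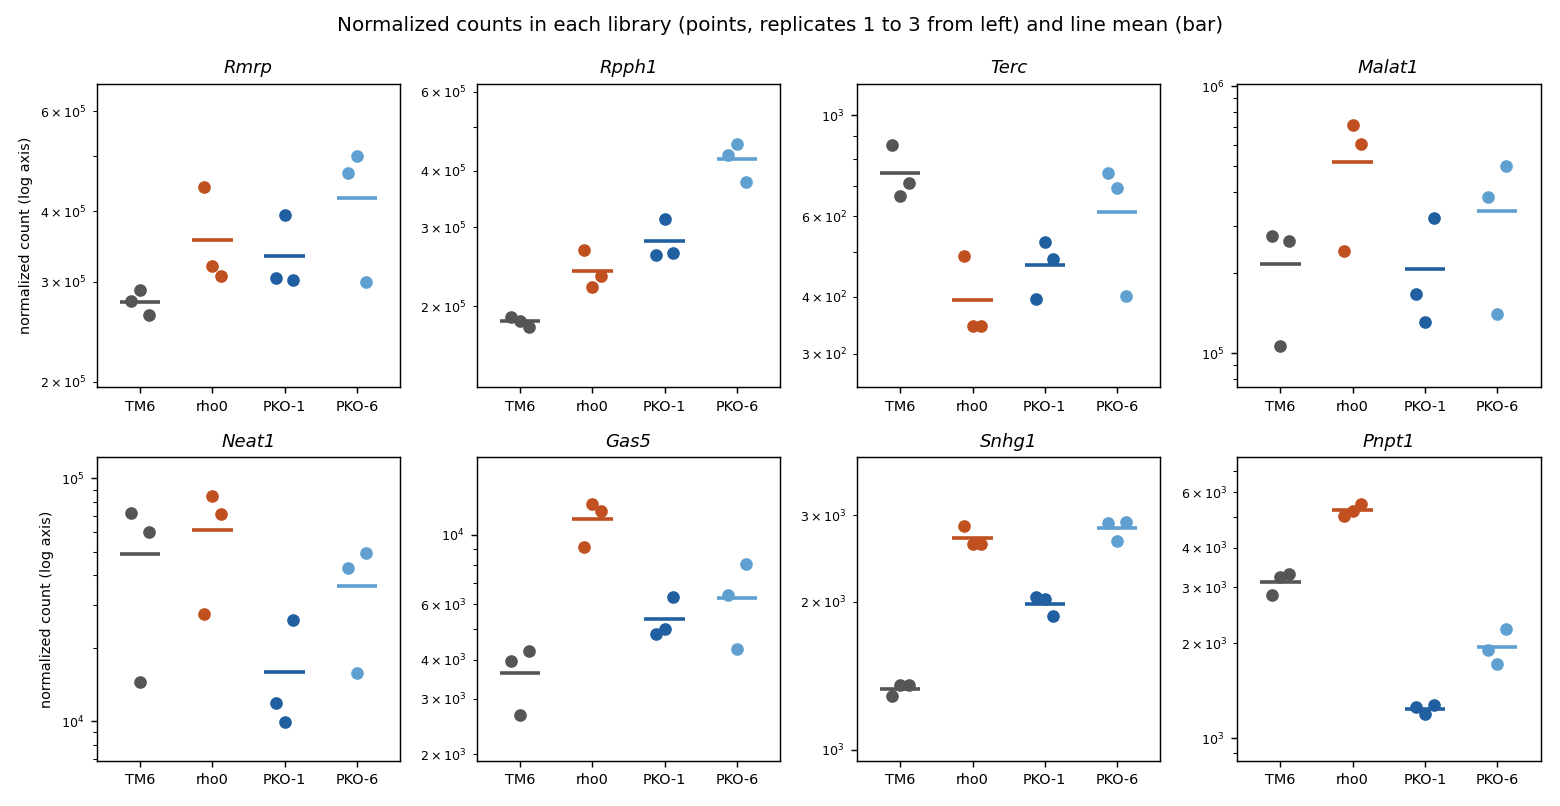
Normalized counts (log axis) of the 7 measured RNAs and of Pnpt1 in each of 12 samples, grouped by line, with points for samples and a bar for the line mean. Snhg1 lies at 1287 to 1358 in TM6 and at 1871 or above in every derived sample, while Malat1 spreads from 106704 to 274748 within TM6 alone.

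**Figure D2:**
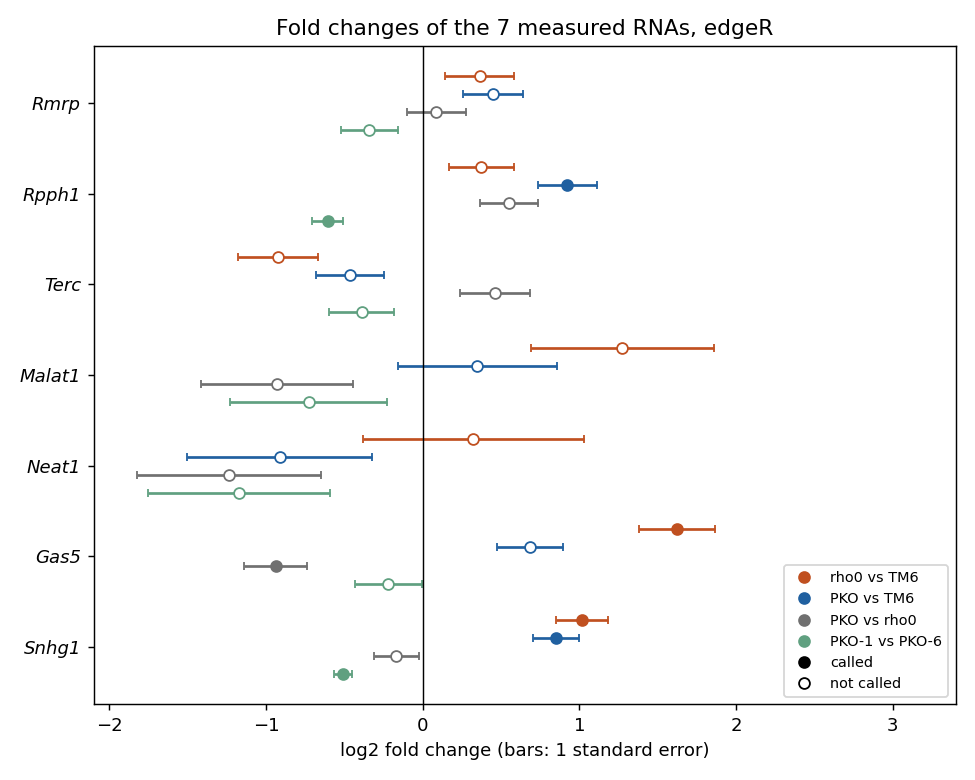
Log2 fold changes of the 7 RNAs (x axis) in 4 comparisons, fitted with edgeR, with bars of 1 standard error and filled points where the gene was called. Snhg1 is filled in 3 of the comparisons, and the bars of Malat1 and Neat1 are the widest.

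Rmrp, the RNA of RNase MRP, is annotated as 1 exon of 275 bases at chr4:43492785-43493059 on the minus strand (mm10). It had 277769, 290419 and 262671 normalized counts in the TM6 samples, 440751, 320633 and 307104 in rho0, 304191.5, 394274 and 302206 in PKO-1, and 467329, 500060.4 and 299891 in PKO-6. Every sample of the derived lines was above every TM6 sample, although by little in PKO-6 replicate 3, and the 3 derived lines overlapped each other. The log2 fold change was 0.36 ± 0.22 in rho0 against TM6 (edgeR, adjusted p = 0.183) and for PKO against TM6 it was 0.45 ± 0.19 (edgeR, adjusted p = 0.0729), so that neither was called. With PKO-6 taken alone it was 0.61 (edgeR, adjusted p = 0.00841), and with PKO-1 alone 0.27 (edgeR, adjusted p = 0.211); between the clones it was -0.34 ± 0.18 (edgeR, adjusted p = 0.119). Leaving out 1 sample moved the difference between the clones from -0.20, without PKO-6 replicate 2, not called, to -0.54, without PKO-6 replicate 3 (edgeR, adjusted p = 0.00796). The rho0 value ranged in the same way from 0.17, without rho0 replicate 1, to 0.44, and the PKO value from 0.32 to 0.51.

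The counts of so short an RNA can depend on the length of the sequenced fragments, whose part in these values was not tested beyond the offset given here. As a measure of that length, the median difference between annotated and effective length of transcripts over 2000 bases was 178.77, 185.72 and 190.85 in TM6, 173.78, 188.29 and 188.07 in rho0, 198.02, 177.61 and 184.32 in PKO-1, and 178.49, 173.37 and 194.11 in PKO-6. The sample with the shortest fragments had the most Rmrp counts in rho0, PKO-1 and PKO-6, but not in TM6. In TPM, a level per length of transcript and per library that takes the effective length into account, Rmrp stood at 83035, 90029 and 85982 in TM6, 113657, 106724 and 99806 in rho0, 99011, 105509 and 92175 in PKO-1, and 129143, 129863 and 102389 in PKO-6. With the effective length of each gene as an offset, an alternative chosen after seeing the data, the log2 fold change of Rmrp was 0.34 ± 0.17 in rho0 against TM6 (edgeR, adjusted p = 0.111) and for PKO against TM6 it was 0.41 ± 0.15 (edgeR, adjusted p = 0.0345), with smaller errors than before and still no call.

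Rpph1, the RNA of RNase P, is 1 exon of 325 bases at chr14:50807447-50807771 on the minus strand. Its normalized counts were 189768, 185623 and 180153 in TM6, 266113, 220872 and 233225 in rho0, 260605, 313106 and 262739 in PKO-1, and 434886, 458912 and 378215 in PKO-6. TM6 lay below all derived samples and PKO-6 above all others, whereas rho0 and PKO-1 overlapped. Rpph1 rose in PKO against TM6 by a log2 fold change of 0.92 ± 0.19 (edgeR, adjusted p = 0.00163); without TM6 replicate 3 the value was 0.90 and the adjusted p of the same edgeR test 0.0101. In rho0 against TM6 it was 0.375 ± 0.21 (edgeR, adjusted p = 0.149), and in PKO against rho0 0.55 ± 0.18 (edgeR, adjusted p = 0.0384), where PKO-6 alone was called at 0.82 (edgeR, adjusted p = 1.28e-05). PKO-1 against PKO-6 gave -0.605 ± 0.10 (edgeR, adjusted p = 0.000128), a lower level in PKO-1 that stayed called without any 1 sample. In TPM the lines separated fully, with means of 39216 ± 393 in TM6, 49481 ± 1729 in rho0, 56524 ± 1653 in the PKO-1 cultures and 84342 ± 2358 for PKO-6 (± SD over 3 samples).

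The sequences of Rmrp and Rpph1 are shown because both are named as substrates of PNPase import; the capitals mark the longest runs of letters found in both, each 9 bases long. The transcripts are those of GENCODE vM21 (GRCm38), written as DNA 5′ to 3′ from the minus strand. Rmrp is given whole, at chr4:43492788-43493058, and Rpph1 by its first 300 of 319 bases, at chr14:50807468-50807767. The runs begin at bases 183 and 221 of Rmrp and at bases 17 and 246 of Rpph1; they are a description of the letters and no sign of a binding site.
Rmrp: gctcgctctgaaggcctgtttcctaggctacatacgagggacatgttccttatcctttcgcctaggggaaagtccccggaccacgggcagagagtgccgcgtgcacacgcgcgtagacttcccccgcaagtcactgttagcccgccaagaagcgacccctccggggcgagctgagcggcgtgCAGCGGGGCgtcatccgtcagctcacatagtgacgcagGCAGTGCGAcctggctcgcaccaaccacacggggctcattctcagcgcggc
Rpph1: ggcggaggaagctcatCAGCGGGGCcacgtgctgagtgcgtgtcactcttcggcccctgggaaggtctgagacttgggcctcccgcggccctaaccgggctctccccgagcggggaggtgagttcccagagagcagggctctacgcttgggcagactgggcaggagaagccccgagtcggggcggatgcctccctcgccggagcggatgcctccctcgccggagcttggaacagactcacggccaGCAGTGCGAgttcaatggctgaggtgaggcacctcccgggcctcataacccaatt

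Of the protein subunits of RNase P and RNase MRP, 2 of 11 were called as higher and 1 as lower in rho0 against TM6. There 29.3% of all genes were called, and the list had a median log2 fold change of -0.26. In PKO against TM6 with the clones pooled 2 of 11 were called, both higher, beside 25.7% of all genes, with a median of -0.089. With the 4 lines fitted separately 1 was called as higher and 1 as lower in PKO-1 against TM6, beside 34.3% of all genes. In PKO-6 4 were called as higher and 1 as lower, beside 41.3%. Pop5, a subunit of both enzymes, had 1007, 1026 and 1042 normalized counts in the TM6 samples, 544, 472 and 449 in rho0, 933, 943 and 934 in PKO-1, and 812, 882 and 708 in PKO-6. It was lowest in the 3 rho0 samples, with a log2 fold change of -1.07 in rho0 against TM6 (edgeR, adjusted p = 2.65e-05) and of 0.83 in PKO against rho0 (edgeR, adjusted p = 0.000202). Rpp21 rose by 0.69 in rho0 (edgeR, adjusted p = 0.00503) and by 0.68 in PKO (edgeR, adjusted p = 0.00262) against TM6, and Rpp38 by 0.67 in rho0 (edgeR, adjusted p = 0.00121). The call of Rpp21 was lost without any 1 of the TM6 samples in either comparison, and in rho0 also without rho0 replicate 1 or 2, with adjusted p up to 0.0224 in edgeR. Rpp40 rose in PKO by 0.53 (edgeR, adjusted p = 0.00784), but this call was lost on leaving out any of 10 of the 12 samples and kept only without PKO-1 replicate 2 or 3, with adjusted p up to 0.0597. Between the clones only Rpp25 was called among the 11, beside 29.1% of all genes, a gene with a mean under 100 normalized counts that is named after its values were seen; it had 6.2 to 9.5 normalized counts in PKO-1, 118.7 to 140.9 in PKO-6, 194.3 to 267.3 in rho0 and 14.3 to 20.9 in TM6. At an adjusted p under 0.01 in edgeR with no fold threshold, 6 of the 11 passed between the clones, beside 50.0% of all genes.

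Of 3 RNase P RNA like genes only Rprl3 had enough counts to be tested. Its log2 fold change was 1.28 in PKO against TM6 and it was called, at 20.1 to 28.9 normalized counts in TM6 and 41.7 to 81.4 in the PKO samples; it too is named after its values were seen. Rprl3 and Rpph1 share a run of 37 identical bases, so that reads may be divided between them by the counting, and the value of Rprl3 is uncertain. Of the 7 proteins of the 7SK and P-TEFb complexes, which bind Rn7sk, 2 were called in rho0 and 1 in PKO against TM6, beside 29.3% and 25.7% of all genes. Ccnt2 rose by 0.93 in rho0 (edgeR, adjusted p = 0.00034) and in the PKO samples by 0.62 (edgeR, adjusted p = 0.00228), and Larp7, which binds the end of 7SK RNA, was lower in rho0 by -0.62 (edgeR, adjusted p = 0.00176). The call of Ccnt2 in PKO was lost without TM6 replicate 2 (0.52, edgeR, adjusted p = 0.0169). In PKO against rho0 and between the clones 0 of the 7 were called in edgeR or DESeq2, beside 10.7% and 29.1% of all genes in edgeR. At an unadjusted p under 0.05 in edgeR 3 of the 7 passed in each, beside 44.5% and 64.8% of all genes, and between the clones these 3, Larp7 (0.38, adjusted p = 2.97e-05), Hexim1 (0.47, adjusted p = 6.73e-06) and Ccnt1 (-0.16, adjusted p = 0.00808), missed only the fold threshold. The medians of the list were 0.078 in rho0 and 0.04 in PKO against TM6.

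Terc, the RNA that carries the template of telomerase, is 1 exon of 397 bases at chr3:96414437-96414833 on the minus strand. It had 862, 666 and 711 normalized counts in the TM6 samples, 490.1, 345 and 345 in rho0, 395, 527 and 484 in PKO-1, and 748, 692 and 401 in PKO-6. All rho0 and PKO-1 samples were below all TM6 samples, while 2 of the 3 PKO-6 samples lay within the TM6 range. The log2 fold change was -0.92 ± 0.26 in rho0 against TM6 (edgeR, adjusted p = 0.0106), just short of the threshold, and -0.46 ± 0.22 in PKO against TM6 (edgeR, adjusted p = 0.0968). The rho0 value passed the threshold when the 4 lines were fitted separately (-0.92, edgeR, adjusted p = 0.00137) and with the effective length offset (-0.94, edgeR, adjusted p = 0.00483). It passed also by DESeq2 (-0.86, adjusted p = 0.00121), and in edgeR on leaving out rho0 replicate 1, the first replicate of PKO-1 or any 1 of the PKO-6 samples (edgeR, adjusted p from 0.00503 to 0.00851). PKO-1 and PKO-6 differed by -0.39 ± 0.21 (edgeR, adjusted p = 0.123), and leaving out 1 sample moved this between -0.22, without PKO-6 replicate 1, not called, and -0.62, without PKO-6 replicate 3 (edgeR, adjusted p = 0.00481). The stretch around the template is shown, with the letters CTAACCC, from which telomeric repeats are copied, in capitals; it covers bases 4 to 63 of the 423-base GENCODE vM21 transcript, at chr3:96414797-96414856.
Terc: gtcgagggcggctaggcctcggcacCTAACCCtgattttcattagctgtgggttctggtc

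Of 7 telomerase proteins, 1 was called by edgeR and 2 by DESeq2 in rho0 against TM6, all as lower, beside 15.6% and 17.7% of all genes called as lower by these tools. The 1 called by edgeR was Tert, the reverse transcriptase. It had 137.5, 94.6 and 129.6 normalized counts in the TM6 samples, 11.6, 11.1 and 13.4 in rho0, 92.9, 87.3 and 115.8 in PKO-1, and 139.2, 117.1 and 144.5 in PKO-6. The rho0 samples were thus far below all others, with a log2 fold change of -3.31 against TM6 (edgeR, adjusted p = 2.83e-06); in PKO against rho0 Tert was called as higher at 3.26 (edgeR, adjusted p = 7.37e-06), or 1 of 7 beside 10.7% of all genes. Its mean was under 100 normalized counts and it is named after its values were seen. In PKO against TM6 with the clones pooled 0 of the 7 were called by edgeR or DESeq2, beside 25.7% of all genes in edgeR. At an unadjusted p under 0.05 in edgeR 0 passed, beside 55.3%, and the list had a median of -0.075. With the 4 lines fitted separately Nop10 was called as lower in PKO-6 against TM6 (-0.595, edgeR, adjusted p = 1.56e-05). That made 1 of 7 beside 41.3% of all genes, and in PKO-1 0 were called, beside 34.3%. In that fit Tert and Nop10 were called in rho0, Nop10 at -0.65 (edgeR, adjusted p = 7.66e-06), or 2 of 7 beside 42.1%. In PKO-1 against PKO-6 2 of the 7 were called, beside 29.1% of all genes: the H/ACA proteins Nop10 and Dkc1 were higher by 0.59 (edgeR, adjusted p = 2.55e-05) and 0.53 (edgeR, adjusted p = 9.64e-06); Dkc1 fell below the fold threshold without PKO-1 replicate 1 (0.48) or PKO-6 replicate 1 (0.49).

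Malat1, an unspliced RNA of nuclear speckles, spans 6982 bases at chr19:5795690-5802671 on the minus strand. Its normalized counts were 274748, 106704 and 263936 in TM6, 241850.4, 713938 and 606223 in rho0, 166215, 130962 and 321629 in PKO-1, and 382624, 140351 and 500539 in PKO-6. Samples of the same line differed widely, and the ranges of all 4 lines overlapped. A chi-square per gene between samples of a line was 83.51 and 63.27 for rho0 replicate 1 against replicates 2 and 3. It was 4.546 between rho0 replicates 2 and 3, and highest at 132.7 between PKO-6 replicates 2 and 3. The part of such differences in the spread of Malat1 was not tested. RNA was extracted by either of 2 methods, TRIzol or RNeasy, and since the method used for each sample is not given in the sources used here, the spread of Malat1 was not tested against it. The log2 fold change was 1.28 ± 0.58 in rho0 against TM6 (edgeR, adjusted p = 0.0885), 0.35 ± 0.51 in PKO against TM6 (edgeR, adjusted p = 0.6), -0.93 ± 0.48 in PKO against rho0 (edgeR, adjusted p = 0.161) and -0.73 ± 0.50 between the clones (edgeR, adjusted p = 0.227). Leaving out 1 sample gave 0.95 to 1.61, 0.02 to 0.53, -1.29 to -0.64 and -1.20 to -0.34 in the same order. With errors of this size, moderate changes of Malat1 would have been missed.

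Neat1 lies next to Malat1 on the same chromosome and strand, at chr19:5824710-5845480. It had 72029, 14496 and 60003 normalized counts in the TM6 samples, 27569, 84416 and 71506 in rho0, 11926, 9926 and 26001 in PKO-1, and 42668, 15782 and 49286 in PKO-6. In each line the sample lowest in Malat1 was also the lowest in Neat1, and all ranges overlapped except that PKO-1 was below rho0. The log2 fold change of Neat1 was 0.32 ± 0.70 in rho0 against TM6 (edgeR, adjusted p = 0.72) and for PKO against TM6 it was -0.91 ± 0.59 (edgeR, adjusted p = 0.226). PKO against rho0 gave -1.24 ± 0.59 (edgeR, adjusted p = 0.126) and PKO-1 against PKO-6 -1.17 ± 0.58 (edgeR, adjusted p = 0.0961). Leaving out 1 sample gave -0.11 to 0.71, -1.35 to -0.55, -1.61 to -0.95 and -1.72 to -0.87 in this order, and the replicate number as a block 0.64 in rho0 against TM6. With the effective length offset, which also takes up a change in the mix of transcripts, these 4 values were, in the same order, 0.74 (edgeR, adjusted p = 0.398), -0.074 (edgeR, adjusted p = 0.932), -0.82 (edgeR, adjusted p = 0.307) and -1.41 (edgeR, adjusted p = 0.0359), so that the size of each depended on the offset.

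Neat1 has 2 transcripts in the deposited values, which share their 5′ part: a short one of 3185 bases and a long one of 20769 bases, which alone is able to build paraspeckles. The ratio of long to short transcript in TPM, a measure chosen after its values were seen and given here without a test, was 0.344, 0.253 and 0.316 in TM6, 0.105, 0.174 and 0.177 in rho0, 0.0949, 0.097 and 0.0998 in PKO-1, and 0.0543, 0.0442 and 0.0548 in PKO-6. The 4 lines did not overlap, in the order TM6, rho0, PKO-1, PKO-6, but rho0 replicate 1 at 0.105 was close to PKO-1 replicate 3 at 0.0998. The counts of the gene as a whole varied several fold within each line. In TM6, rho0 and PKO-6, though not in PKO-1, the sample with the fewest Neat1 counts also had the lowest ratio. The part of the Neat1 level in the ratio was not tested. The long transcript stood at 74.87, 13.38 and 60.57 TPM in TM6, 15.41, 69.98 and 58.58 in rho0, 6.55, 5.38 and 15.46 in PKO-1, and 16.04, 4.94 and 20.50 in PKO-6. The short one was at 217.56, 52.95 and 191.83 TPM in TM6, 146.59, 403.10 and 331.27 in rho0, 69.05, 55.47 and 154.94 in PKO-1, and 295.15, 111.88 and 373.96 in PKO-6, so that the 2 transcripts did not move alike in the 3 derived lines. Reads in the shared part are assigned to one or the other transcript by the model behind the estimated counts, so that the ratio depends on that model.

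**Figure D3:**
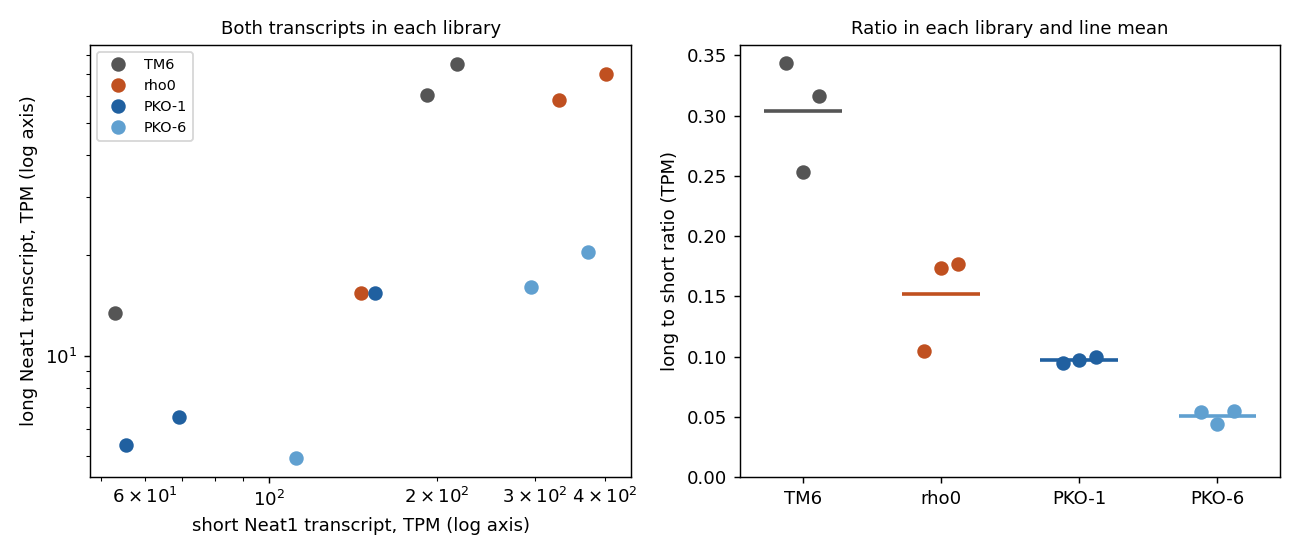
Long against short Neat1 transcript in TPM (both log axes) in 12 samples on the left, and their ratio in each sample with the line mean as a bar on the right. The ratio averages 0.304 in TM6, 0.152 in rho0, 0.0972 in PKO-1 and 0.0511 in PKO-6.

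Among 8 paraspeckle proteins 1 was called in rho0 against TM6 and 1 in PKO with the clones pooled, both as lower. These stand beside 15.6% and 12.2% of all genes called as lower, and in both comparisons the gene was Nono. It had 21871, 23833 and 23666 normalized counts in the TM6 samples, 12272, 10944 and 11479 in rho0, 14697, 14059.6 and 13609 in PKO-1, and 10097, 10472 and 10779 in PKO-6. No derived sample came near the TM6 samples, and the log2 fold change was -1 in rho0 (edgeR, adjusted p = 0.000174) and -0.91 in PKO (edgeR, adjusted p = 8.32e-05). The medians of the list were -0.12 and -0.005. Between the clones 1 of the 8 was called, beside 29.1% of all genes: Nudt21, a subunit of the cleavage factor that sets 3′ ends, was higher in PKO-1 by 0.54 (edgeR, adjusted p = 2.21e-05) and fell below the fold threshold without PKO-6 replicate 3 (0.49). At an adjusted p under 0.01 in edgeR with no fold threshold, 5 of the 8 passed between the clones, beside 50.0% of all genes.

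Gas5 hosts snoRNAs in its introns and lies at chr1:161035166-161038537 on the plus strand. It had 3969.5, 2674 and 4253 normalized counts in the TM6 samples, 9131, 12569.6 and 11874 in rho0, 4837, 5007 and 6339 in PKO-1, and 6447, 4313 and 8068 in PKO-6. The rho0 samples were above all others and the TM6 samples below all others, although TM6 replicate 3 and PKO-6 replicate 2 were close. Gas5 rose in rho0 against TM6 by 1.62 ± 0.24 (edgeR, adjusted p = 0.000221). The value for PKO against TM6 was 0.68 ± 0.21 (edgeR, adjusted p = 0.0193), and DESeq2's Wald test gave a shrunken value of 0.62 with an adjusted p of 0.00434, which passed. In edgeR it passed with the 4 lines fitted separately (0.68, adjusted p = 0.00563) and with PKO-6 alone (0.79, adjusted p = 0.00454), so that the call depended on the test and on the grouping. It was lower in PKO than in rho0 by -0.94 ± 0.20 (edgeR, adjusted p = 0.00466), a call lost without PKO-1 replicate 2 (-0.90, edgeR, adjusted p = 0.0101), rho0 replicate 2 (-0.86, adjusted p = 0.0288) or rho0 replicate 3 (-0.91, adjusted p = 0.025). The table counts Gas5 by 1 model of 2554 bases, whose first exon of 2382 bases holds 10 of the 16 distinct introns that GENCODE vM21 gives to its 25 Gas5 transcripts. Reads from spliced and unspliced Gas5 therefore cannot be told apart in these counts. Reads from any snoRNA that lies in those introns would also be counted as Gas5.

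Snhg1, a host of 10 exons at chr19:8723487-8726326 on the plus strand, varied little within each line. It had 1287, 1358 and 1353 normalized counts in the TM6 samples, 2845, 2622 and 2617 in rho0, 2043, 2029 and 1871 in PKO-1, and 2896, 2659 and 2901 in PKO-6. TM6 was lowest, PKO-1 lay between, and rho0 and PKO-6 overlapped above them. Snhg1 rose against TM6 by 1.02 ± 0.17 in rho0 (edgeR, adjusted p = 0.000399) and by 0.85 ± 0.15 in PKO (edgeR, adjusted p = 0.000582), and these calls were kept under every alternative and without any 1 sample. PKO against rho0 gave -0.17 ± 0.14 (edgeR, adjusted p = 0.38). PKO-1 was below PKO-6 by -0.51 ± 0.06 (edgeR, adjusted p = 3.37e-06), at the edge of the fold threshold: the value was -0.47 without PKO-1 replicate 3, -0.49 without PKO-6 replicate 1 or 3, and -0.49 with the effective length offset, each short of a call.

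Of the snoRNAs, 1 of 10 hosted by Gas5 and 1 of 8 hosted by Snhg1 had a row, and both lie in an intron of the host, where reads from an unspliced host cannot be told apart from the snoRNA. Snord22, of 126 bases at chr19:8725866-8725991, had 347, 577 and 520.5 normalized counts in the TM6 samples, 1535, 2097.5 and 1264 in rho0, 1531, 1772 and 1154 in PKO-1, and 1247, 1032 and 1282 in PKO-6. All derived samples were above TM6, by a log2 fold change of 1.76 in rho0 (edgeR, adjusted p = 0.000153) and 1.47 in PKO (edgeR, adjusted p = 0.000246), like its host in direction. Between the clones it went the other way, at 0.32 (edgeR, adjusted p = 0.185) where Snhg1 was called at -0.51. Snord47, of 65 bases within Gas5, was detected at 0, 3 and 17 raw counts in TM6, 1, 3 and 1 in rho0, 97, 134 and 9 in PKO-1, and 21, 10 and 59 in PKO-6, and edgeR called it in none of the 4 comparisons, while DESeq2 called it as higher in PKO against rho0 (4.95 in edgeR, adjusted p = 0.0218); with the lines fitted separately it was called in PKO-1 against TM6 at 3.79 (edgeR, adjusted p = 0.004). It was thus low in rho0, where Gas5 was highest, but low also in TM6, where Gas5 was lowest, and differed widely between samples of 1 clone. Both snoRNAs are shorter than the fragment measure given above for every sample, so that their counts can depend on fragment length. With the effective length offset Snord22 was at 1.65 in rho0 and at 1.32 in PKO against TM6. Beyond that offset the part of fragment length was not tested.

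Of the other snoRNA host genes 14 were tested, of which 6 rose in rho0 against TM6, beside 13.7% of all genes called as higher: Snhg4, Snhg5, Snhg6, Snhg8, Snhg12 and Epb41l4aos. The median of the 14 was 0.69 beside 0.018 over all genes. DESeq2 called 7 as higher in rho0 against TM6, beside 15.9% of all genes. With the 4 lines fitted separately 10 of the 14 were called there, 8 as higher and 2 as lower, beside 42.1%. In PKO against TM6 with the clones pooled edgeR called only Epb41l4aos, or 1 of 14 beside 13.5% of all genes called as higher. The median was 0.26, and DESeq2 called 2 as higher, beside 14.9%. With the 4 lines fitted separately, 2 were called as higher and 1 as lower in PKO-1 against TM6, beside 34.3% of all genes. In PKO-6 against TM6 3 were called as higher and 2 as lower, beside 41.3%. In PKO against rho0, with a median of -0.40, 0 of 14 were called in edgeR, beside 10.7% of all genes, while 8 were lower at an unadjusted p under 0.05, beside 20.4%, and DESeq2 called 3 as lower, beside 6.74%. Snhg12 had 670.1, 544.6 and 680.1 normalized counts in the TM6 samples, 1576, 1459 and 1538 in rho0, 696.4, 778.5 and 772.6 in PKO-1, and 1344, 1036 and 1219.7 in PKO-6. It rose by 1.27 in rho0 (edgeR, adjusted p = 0.000856), and PKO-1 was only just above TM6 while PKO-6 lay between, a difference between clones of -0.68 (edgeR, adjusted p = 5.27e-05). Epb41l4aos rose by 1.14 in rho0 (edgeR, adjusted p = 4.97e-05) and 0.86 in PKO (edgeR, adjusted p = 0.000146). Snhg4 and Snhg6 rose in rho0 by 1.10 (edgeR, adjusted p = 0.00445) and 0.92 (edgeR, adjusted p = 0.00876); both calls were lost without any 1 of the TM6 samples or without rho0 replicate 2 or 3, and that of Snhg6 also without rho0 replicate 1, with adjusted p up to 0.0309. Between the clones 2 of the 14 were higher in PKO-1 and 2 lower, a share close to the 29.1% of all genes: Snhg6 was lower by -0.79 (edgeR, adjusted p = 3.92e-07) and Snhg18 higher by 0.66 (edgeR, adjusted p = 5.51e-05). Snhg14, named after its values were seen, was at 20.2 to 38.1 normalized counts in PKO-1 and at 0 in all PKO-6 samples.

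Host transcripts of this kind often begin with a run of pyrimidines, the start of the terminal oligopyrimidine class of genes whose translation follows cell growth. RefSeq start windows (GRCm38.p6) were found for 3 of the 7 RNAs, Malat1, Gas5 and Snhg1. A run of at least 5 bases that were all C or T, read on the strand of the gene from the annotated first base, was present in 4.44% of 32851 windows of the same length. Of the 11 host genes, Gas5 and Snhg1 included, with a window that begins where the count table places the transcript, 6 had such a run: Gas5, Snhg7, Snhg8, Snhg12, Snhg17, where 1 of 2 matching windows held it, and Snhg18. Of these 6, 3 were not called in rho0 against TM6: Snhg7 at 0.29 (edgeR, adjusted p = 0.332), Snhg17 at 0.94 (edgeR, adjusted p = 0.0133) and Snhg18 at -0.52 (edgeR, adjusted p = 0.0754), although Snhg17 was called as higher and Snhg18 as lower with the 4 lines fitted separately. The called host Snhg5 had no pyrimidine at its start. The windows of Gas5, Snhg1, Snhg8 and Snhg12, all called as higher in rho0, are shown from 30 bases before the annotated start to 50 bases after it, with the pyrimidine run at the start in capitals. The run has 5 bases in Gas5, 3 in Snhg1, and 6 in Snhg8 and Snhg12. They lie at chr1:161035136-161035215, chr19:8723457-8723536, chr3:123508287-123508366 (minus strand) and chr4:132308648-132308727. A run is a match of letters only.
Gas5: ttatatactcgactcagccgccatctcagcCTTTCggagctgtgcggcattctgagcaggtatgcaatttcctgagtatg
Snhg1: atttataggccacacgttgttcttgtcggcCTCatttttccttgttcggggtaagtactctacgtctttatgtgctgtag
Snhg8: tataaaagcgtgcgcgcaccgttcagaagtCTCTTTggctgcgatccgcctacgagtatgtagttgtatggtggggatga
Snhg12: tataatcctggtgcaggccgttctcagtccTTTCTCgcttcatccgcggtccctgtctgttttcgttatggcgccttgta

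Of 8 factors of nonsense-mediated decay, which removes spliced Gas5 and Snhg1, 2 were called in rho0 against TM6, both lower, beside 15.6% of all genes called as lower. In PKO against TM6 with the clones pooled, in PKO against rho0 and between the clones 0 were called in edgeR or DESeq2, beside 25.7%, 10.7% and 29.1% of all genes; at an unadjusted p under 0.05 in edgeR, 2 of the 8 passed in PKO against TM6, 5 in PKO against rho0 and 4 between the clones, where 55.3%, 44.5% and 64.8% of all genes did. The 4 between the clones, Upf1 (0.49, adjusted p = 1.42e-05), Upf3a (0.47, adjusted p = 7.22e-06), Smg5 (-0.41, adjusted p = 6.21e-05) and Smg6 (-0.20, adjusted p = 0.00207), missed only the fold threshold in edgeR. Upf1, the central helicase, had 12348, 11845 and 11825 normalized counts in the TM6 samples, 8005, 7299.8 and 7500.5 in rho0, 10259, 10658 and 11058 in PKO-1, and 7411, 8292 and 7003 in PKO-6. It was lower in rho0 by -0.66 (edgeR, adjusted p = 0.00544), a call lost without any 1 of the 6 TM6 and rho0 samples, with adjusted p up to 0.0198, and kept with the 4 lines fitted separately (edgeR, adjusted p = 5.67e-07). In that fit PKO-6 against TM6 was called as lower for Upf1 at -0.67 (edgeR, adjusted p = 4.76e-07) and for Upf3a at -0.52 (edgeR, adjusted p = 1.84e-06), whereas PKO-1 against TM6 gave -0.17 for Upf1 (edgeR, adjusted p = 0.0292). Smg5 was lower by -0.64 (edgeR, adjusted p = 0.00275) and missed the threshold without rho0 replicate 2 (edgeR, adjusted p = 0.0117). The medians of the list were 0.13 in rho0 and -0.19 in PKO against TM6.

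Of 13 other small stable RNAs 8 had a row and 4 were tested. Vaultrc5, a vault RNA named after its values were seen, was called as higher in rho0, at 3.5 to 10.5 normalized counts in TM6 and 19.4 to 33.5 in rho0, which makes 1 of 4 beside 29.3% of all genes. In PKO against TM6, in PKO against rho0 and between the clones 0 of 4 were called in edgeR or DESeq2, beside 25.7%, 10.7% and 29.1% of all genes, and 1, 0 and 0 passed an unadjusted p under 0.05 in edgeR, beside 55.3%, 44.5% and 64.8%. Rn45s, the ribosomal RNA precursor, took between 12.2% and 19.6% of the counts of a sample. Of other long noncoding RNAs 10 were tested, of which 2 were higher and 1 lower in rho0 against TM6, a share close to the 29.3% of all genes, and 1 was higher in PKO against TM6, beside 25.7%. With the 4 lines fitted separately 7 of the 10 were called in rho0 against TM6, 5 higher and 2 lower, beside 42.1% of all genes. In that fit 3 were called in PKO-1 and 4 in PKO-6 against TM6, beside 34.3% and 41.3%. In PKO against rho0 0 of 10 were called in edgeR, beside 10.7% of all genes, while 3 were lower at an unadjusted p under 0.05, beside 20.4%, and DESeq2 called 2 as lower, beside 6.74%. Pvt1 rose in rho0 by 1.14 (edgeR, adjusted p = 0.00491) and in PKO by 1.04 (edgeR, adjusted p = 0.00439), and Kcnq1ot1, an antisense RNA of an imprinted locus, rose in rho0 by 1.34 (edgeR, adjusted p = 0.008). The RNA 2900097C17Rik was lower in rho0 by -0.61 (edgeR, adjusted p = 0.00566). The call of Pvt1 was lost without any 1 of the TM6 samples in each comparison and, in rho0, without rho0 replicate 2 or 3, with adjusted p up to 0.0275; that of 2900097C17Rik was lost without any 1 TM6 or rho0 sample, with adjusted p up to 0.02. Kcnq1ot1 lost its call on leaving out any of 8 of the 12 samples, all but replicate 1 of rho0, replicate 1 of PKO-1 and replicates 2 and 3 of PKO-6, with adjusted p up to 0.0459.

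Between the clones 4 of the 10 long RNAs were called, beside 29.1% of all genes. Among these 10 RNAs the clones differed most in Xist, the RNA that silences an X chromosome, and in the imprinted RNA H19. Xist had 53.6, 16 and 22.8 normalized counts in PKO-1 and 80185, 55288 and 99686 in PKO-6, beside 38495, 29776 and 38340.2 in TM6 and 47051, 109328 and 97787.5 in rho0. H19 had 850.0, 766.8 and 800.5 in PKO-1 against 38.5, 11.4 and 15.5 in PKO-6, with 499.8, 503.5 and 563.4 in TM6 and 185.0, 171.7 and 170.8 in rho0. Neither gene had overlapping values in the clones, and both were called in PKO-1 against PKO-6 (edgeR, adjusted p = 1.91e-10 for Xist and 5.41e-10 for H19). Pvt1 was lower in PKO-1 by -0.73 (edgeR, adjusted p = 0.000822). Firre was lower by -0.98 (edgeR, adjusted p = 0.0099), a call lost on leaving out any of 8 of the 12 samples, with adjusted p up to 0.0464, and kept on leaving out replicate 2 of TM6, 1 of rho0, 3 of PKO-1 or 2 of PKO-6.

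Levels of the 7 RNAs can be set beside each other only per length, in TPM. In TM6 the order was Rmrp at 86348 ± 3512, Rpph1 at 39216 ± 393, Malat1 at 960.3 ± 425, Neat1 at 203.7 ± 120.7, Snhg1 at 138.6 ± 6.12, Terc at 106.1 ± 13.1 and Gas5 at 46.5 ± 11.1 (SD, n = 3 each). Snhg1 and Terc lay within the spread of Neat1 and cannot be ordered against it. Rmrp was highest in all 4 lines, followed by Rpph1 and then Malat1. Terc and Gas5 changed places, with 106.1 TPM for Terc and 46.5 for Gas5 in TM6 but 54.1 ± 5.32 for Terc and 142.2 ± 32.3 for Gas5 in rho0. The levels of the shortest RNAs depend on the length used: with the annotated in place of the effective length Rmrp in TM6 was at 40881 TPM and Rpph1 at 23137.

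The genes whose values over the 12 samples were most like those of each RNA are given as a description; 11204 genes entered each ranking, and the samples of a line are not independent points. For Rmrp they were Fam195a (Pearson r = 0.96) and Prkcsh (0.956), and for Rpph1 Wipi2 (0.993) and Bcam (0.988). For Terc they were Pias4 (0.967) and Cpsf1 (0.96). For Malat1 they were Akap8l (0.977) and Gm10845 (0.961), and for Neat1 Plppr3 (0.973) and Plcxd1 (0.962). For Gas5 they were Vamp1 (0.984) and Eif4a2 (0.976), and for Snhg1 Car6 (0.995) and Mdfic (0.993). Among the 7 RNAs themselves the highest values were 0.858 for Malat1 with Neat1 and 0.831 for Malat1 with Gas5, and the lowest was -0.742 for Terc with Gas5; Rmrp and Rpph1 had 0.776.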

How the data were processed

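RNA was measured in 12 samples of 4 lines, 3 replicates each, and each sample merged 2 technical libraries. The authors deposited estimated counts per gene made with RSEM, with TPM and effective length per transcript also deposited by the authors from the same run. The submitters' processing notes name bcl2fastq, Bowtie and Bowtie2 without a version, RSEM 1.2.25 and DESeq2 1.18.1; coordinates are of mm10, and the strand setting of RSEM is not given in the sources used here. Of the counts 12.5% were not whole and were rounded. Total counts were 47164832 to 67991336 per sample.

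Genes were filtered with filterByExpr at a minimum count of 10, scaled by TMM and tested with the quasi-likelihood test of edgeR 4.0.16 in R 4.3.3, with Benjamini-Hochberg adjustment over 14026 genes. TM6, rho0 and the pooled PKO clones formed 3 groups in a fit of all 12 samples, and a fit of 4 lines gave PKO-1 against PKO-6. Calls required an adjusted p under 0.01 together with a log2 fold change over 0.5 in size; the standard error was derived from the F statistic. A normalized count is the count divided by the effective library size, times the mean of these sizes. Each list was described by its counts. By rule, values were given for at most 4 called genes in each of the 4 comparisons, ranked by the size of the log2 fold change. These had to average 100 normalized counts or more. Genes were also named beyond this rule, such as all 6 host genes called in rho0 against TM6. For each RNA the 2 genes of highest Pearson correlation of log2 CPM (prior count 2) were taken. The RNAs and lists were chosen with earlier results of these data known.

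The alternatives were DESeq2 1.42.0, its size factors, no filter, other thresholds, removal of Rn45s, other groupings, the replicate number as a block and leaving out each sample; the effective length offset, and the counts at an unadjusted p and by DESeq2 given for the lists and for all genes, were chosen after seeing the data. The test was tried on simulated data. Sequences were read from GENCODE vM21 and RefSeq files, and Python 3.11.15, pandas 2.3.3, scipy 1.17.1 and matplotlib 3.10.9 were used.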

Additional observations from a re-analysis of the deposited data

Results flagged for a closer look

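The PKO clones differed from each other by a direct test of PKO-1 against PKO-6, so that the effect against the shared TM6 samples was not of the same size in both. The log2 difference was -0.6 for Rpph1 (edgeR, adjusted p = 0.000128), -0.51 for Snhg1 (edgeR, adjusted p = 3.37e-06) and -0.65 for Pnpt1 (edgeR, adjusted p = 1.92e-05), each lower in PKO-1 in 3 of 3 samples. For Snhg1 the value moved to between -0.47 and -0.49 without PKO-1 replicate 3, PKO-6 replicate 1 or PKO-6 replicate 3, short of the fold threshold. Each clone is a single colony with 3 samples, and an effect of the knockout and a difference between colonies cannot be told apart.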

How the results depend on the processing

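For the 7 RNAs, 572 of 609 values under the alternatives kept their direction and their side of the threshold, 8 lost a call, 22 gained one and 7 changed sign. Most of the 28 results behind these values were not called in the main fit and had no call to lose. Some alternatives left out a sample of neither compared group, and the looser rule could not lose a call. The 572 is therefore no measure of how firm the calls were. The sign changed only where the difference was not called: Malat1 in PKO against TM6 was -0.06 with PKO-1 alone; Rmrp in PKO against rho0 was -0.09 with PKO-1 alone and ranged from -0.02 (without PKO-6 replicate 2 or rho0 replicate 3) to 0.25 when single samples were left out; Snhg1 in PKO against rho0 was 0.07 with PKO-6 alone; Neat1 in rho0 against TM6 ranged from -0.11 (without TM6 replicate 2) to 0.71, and Gas5 in PKO-1 against PKO-6 from -0.43 to 0 (without PKO-6 replicate 3). Of the 7 RNAs, 4 were called in PKO against TM6 with PKO-6 alone; in PKO against rho0 2 were called with PKO-6 alone, 2 with the 4 lines fitted separately and 2 at an adjusted p below 0.05 with no fold threshold; in PKO-1 against PKO-6 1 was called with the effective length offset, chosen after seeing the data, beside 29.1% of all genes. Leaving out single samples gave 2 to 3 called in rho0 against TM6 (3161 to 4215 of all genes), 1 to 2 in PKO against TM6 (2867 to 3709), 0 to 1 in PKO against rho0 (845 to 1680) and 1 to 3 in PKO-1 against PKO-6 (3807 to 4148). Over all genes, an adjusted p below 0.05 with no fold threshold called 7168 in rho0 against TM6, 6759 in PKO against TM6, 4590 in PKO against rho0 and 8611 between the clones, a looser rule by construction. With PKO-6 alone 5799 genes were called against TM6 and 3014 against rho0, with PKO-1 alone 4590 against rho0, and with the 4 lines fitted separately 3330 in PKO against rho0. Apart from the looser rule, the cause was not tested.

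With the replicate number as a block, 7 of 66 values lost their call and 0 gained one: Snhg6, Upf1, Kcnq1ot1, Pvt1 and 2900097C17Rik in rho0 and Rpp40 and Pvt1 in PKO against TM6. Among the 7 RNAs no call changed, and Gas5 in PKO against rho0 was -0.97. Same-numbered samples correlated at -0.385 to 0.25, above 0.1 in 10 of 18 pairs, and 5 of 12 were closest to their own number, so the numbers do not pair the samples across all lines. Between TM6 and PKO-6, however, same-numbered samples correlated at 0.25, 0.25 and 0.209, and samples of unlike number at -0.231 to -0.008.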
